A study of Papio anubis with 767 samples.

Results

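Nuclear receptors outside the core clock were followed through the tissues and the day of the baboon. They were taken from a list of 33 receptor genes by symbol, and 30 of them had a row among the 29202 rows of the expression table. PPARG, NR2F2 and NR3C2 were not analysed here. Each of the 30 reached a mean of 1 FPKM (fragments scaled by gene length and library size by the submitters) in at least 1 tissue. The animals were 12 male olive baboons (Papio anubis, Papio anubis hamadryas in the protocol), 5 to 6 years old and weighing 7 to 11 kg, housed with 12 h light, 12 h dark and meals at fixed hours. One animal was taken every 2 h from ZT0 (lights on) to ZT22, given a lethal dose of pentobarbital and perfused with cold Ame's solution, and no other treatment or genotype is given in the labels. RNA with polyA tails from 64 tissues of each animal was sequenced from stranded libraries, 12 per tissue except the iris, which had 11 and none at ZT22. Every time of day is thus 1 animal in all tissues, and time of day and animal cannot be told apart. The 12 animals are the replicates throughout.

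Nuclear receptors are transcription factors that bind DNA through zinc fingers and, in many cases, change their activity when a small fat-soluble molecule enters a pocket in the protein. Many of them, among them the receptors for retinoic acid, fatty acids, oxysterols, vitamin D and foreign compounds, bind DNA as a pair with a retinoid X receptor (RXR), whereas steroid receptors pair with themselves and several orphan receptors have no accepted ligand. They recruit coactivators or corepressors and through these set the transcription of genes of lipid, bile acid, drug and energy metabolism, and of cell identity in the liver, gut, eye and brain.

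The 767 libraries held between 32790 and 31811286 reads in genes, with a median of 8255404. The shallowest, the amygdala at ZT8, listed 28 of the 30 receptors at 0. In 86 libraries the profile correlated below 0.9 with the median of the other libraries of the tissue. In 74 a marker list stood at 10 FPKM or more and at least 20 times the median of the library's tissue. These are called libraries holding markers of another tissue, but a tissue's own list was not left out. Own markers flagged the prostate at ZT12 and ZT22, the testicles at ZT2 and ZT14 and pericardial fat at ZT2 and ZT10. They also flagged the stomach fundus at ZT6, ZT12 and ZT16, by gastric genes. Judged by 200 genes that vary between animals in all tissues alike, 92 libraries matched an animal other than the labelled one, 78 of them in 7 tissues. All 12 libraries of the stomach fundus, duodenum, ascending colon, descending colon, testicles and thyroid matched the animal sampled 2 h earlier, and 6 iris libraries the one sampled 2 h later. Times are given as labelled. Libraries far from their tissue or holding such markers are called doubted, and values without them are given for the main results that rest on them. A tissue label also stood apart from its markers: under "Adrenal cortex" the steroid cell genes STAR, CYP17A1 and CYP11A1 had a median of 0.153 FPKM and smooth muscle genes one of 7207 FPKM, while "Adrenal medulla" held the steroid cell genes at 2272 FPKM. Levels in whole tissue are given throughout, in which fewer cells of a type and less RNA per cell cannot be told apart.

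The receptors ranged from genes found in every tissue to genes of a single organ. RXRB, NR1H2 and NR2C1 had a mean of 1 FPKM or more in all 64 tissues, which is 10% of the 30 receptors; among all 20410 genes that reached this level anywhere, 33% did so in all tissues. At the other end NR2E3 reached it in 3 tissues, PGR in 4, NR6A1 in 7 and ESR2 in 10. The tau index, which is 0 for a gene at the same level everywhere and 1 for a gene of 1 tissue, had a median of 0.679 over the receptors and 0.630 over all those genes. A tissue held between 12 receptors (axillary lymphonodes, hippocampus, pons, putamen and visual cortex) and 23 (liver and prostate), with a median of 17. For NR6A1 alone the lowest library of the top tissue lay above the highest library of the next tissue, and for the other 29 the ranges of the first 2 tissues overlapped. Without the doubted libraries the ranges were apart for 5 receptors: NR6A1, NR1I3, HNF4G, NR2F6 and ESR2. The same count was not made over all genes, so whether these are many or few is not known.

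**Figure D1:**
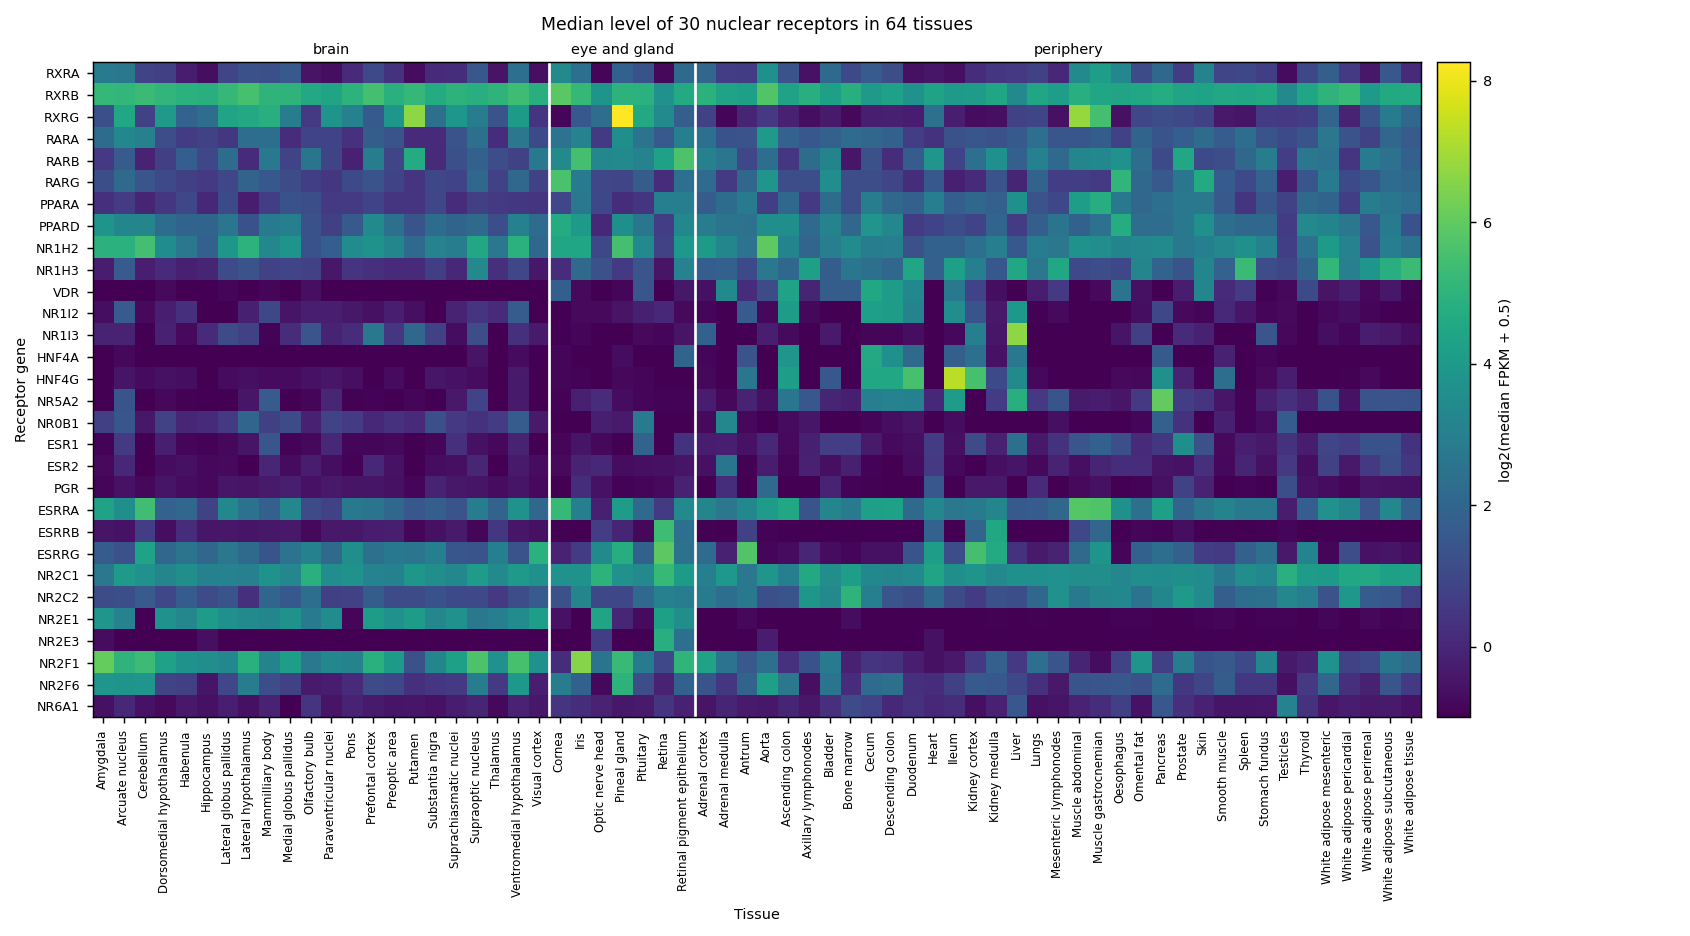
Each row is a receptor and each column a tissue, and the colour is log2 of the median FPKM over the tissue's libraries plus 0.5. RXRB and NR2C1 are bright in every column, while NR2E3, NR1I3, HNF4A and HNF4G stand out in a few.

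The shared partners were unequal. RXRB, the RXR with the widest reach, lay between a median of 9.78 FPKM in the liver and 59.1 FPKM in the cornea, where its libraries ran from 40.4 to 71.0. RXRG, the form linked to muscle and striatal neurons, had its top median in the pineal gland, with a lowest value of 0.778 FPKM, a median of 306 and a highest of 405. The low value came from the ZT10 library, and the next, 96.4 FPKM, from ZT2. Both lay far from the tissue's profile, and without the doubted libraries the pineal values ran from 187 to 405 FPKM.

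RXRG came next in abdominal muscle, with 59.7, 110 and 194 FPKM as lowest, median and highest values, and in the putamen, with 67.3, 102 and 155 FPKM. The muscle and putamen ranges overlapped almost wholly, and all of the putamen values lay above the highest of the mammilliary body (22.3, 27.7 and 37.6 FPKM). RXRA, the form most studied in liver and skin, had its top median in the gastrocnemian muscle at 17.1 FPKM, with values from 0.755 at ZT22 to 89.96 at ZT12, followed by the aorta at 11.9 FPKM. The median of 3 skeletal muscle markers was also lowest at ZT22 (2541 FPKM) and highest at ZT12 (35070 FPKM) in the gastrocnemian muscle, and its part in the RXRA values was not tested.

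Of the retinoic acid receptors, RARB and RARG had their top medians in different tissues, and for each the range overlapped that of the next tissue. RARB was at 37.5, 50.6 and 62.0 FPKM in the retinal pigment epithelium, then at a median of 46.2 FPKM in the iris, 25.5 in the putamen, 22.9 in the prostate and 19.2 in the retina. RARG, the receptor of skin and other lining epithelia, was at 24.9, 48.3 and 59.99 FPKM in the cornea, with medians of 33.8 FPKM in the oesophagus and 24.8 in the skin. RARA had low medians throughout, the top being 15.2 FPKM in the aorta. In the iris, RARA stood at 441 FPKM at ZT8 and 149 at ZT6 against 2.12 to 14.8 in the other 9 libraries; both were doubted, and PPARD was at 489 and 232 FPKM in them.

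Among the fatty acid receptors, PPARA, which drives fatty acid oxidation, was highest by median in the gastrocnemian muscle (12.8, 27.0 and 38.5 FPKM), then in abdominal muscle at 17.2, the liver at 12.1 and the retina at 7.51 FPKM. PPARD, its more widely used relative, had medians of 26.0 FPKM in the oesophagus, 25.3 in the cornea and 13.6 in the cecum, and was at 1 FPKM or more in 63 tissues. The oxysterol receptors NR1H2 (LXR beta) and NR1H3 (LXR alpha), which govern cholesterol efflux, differed in place. NR1H2 was at 45.8, 62.4 and 73.0 FPKM in the aorta, with 45.4 in the pineal gland and 44.3 in the cerebellum. NR1H3 was at 20.3, 39.4 and 89.8 FPKM in the spleen, with medians of 39.0 FPKM in white adipose tissue, 34.2 in mesenteric fat and 28.5 in subcutaneous fat. The spleen and adipose ranges overlapped, and without doubted libraries the highest spleen value was 55.9 FPKM.

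The receptors of liver and gut reached a mean of 1 FPKM in 13 tissues (NR1I3, HNF4A and HNF4G) to 20 tissues (VDR). Their top medians ran from 18.1 FPKM for NR1I2 to 159 FPKM for HNF4G. NR1I3 (CAR), which senses foreign compounds in the liver, was at 4.53, 103.5 and 140 FPKM in the liver, and its median in the kidney cortex was 7.58 FPKM. The lowest liver values, 4.53 at ZT6 and 17.5 at ZT0, came from the libraries that also held neuron, astrocyte and oligodendrocyte markers, with the synaptic gene SNAP25 at 260 and 232 FPKM against at most 3.07 in the other 10. The other liver libraries gave NR1I3 values from 44.3 to 140 FPKM, all above the highest kidney cortex value of 17.0.

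NR1I3 was also present in the brain, with 3.86, 6.03 and 8.58 FPKM in the prefontal cortex and a median of 3.81 in the putamen. Its median there rested on 40.5 reads in the prefontal cortex and 17 in the putamen, against 828.5 in the liver. By the RefSeq annotation of Panubis1.0 the gene overlaps TOMM40L, which had a median of 1.10 to 61.1 FPKM in all 64 tissues; use of strand in the counting is not stated, so reads of the pair may be mixed. The Spearman correlation of their medians over the 64 tissues was 0.0444, and whether the few brain reads of NR1I3 belong to TOMM40L was not tested. HNF4A overlaps FITM2 (correlation 0.113), and ESRRA overlaps TRMT112, which has no value here.

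NR1I2 (PXR), the other sensor of foreign compounds, was at similar medians in the cecum (18.1 FPKM), descending colon (16.9), ascending colon (16.3) and liver (15.0). VDR, the vitamin D receptor, followed the large intestine too, with 13.6, 23.2 and 43.2 FPKM in the cecum and medians of 19.8 and 16.6 in the ascending and descending colon. Its highest value in the liver was 0.274 FPKM, which is 3 reads.

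The hepatocyte nuclear factors had their top medians in different parts of the gut, but HNF4G was not confined to the small intestine. In both colon segments HNF4G was among the 5 receptors with the highest medians and HNF4A was not. HNF4A, a master regulator of liver and gut epithelium, was at 10.9, 23.8 and 34.97 FPKM in the cecum, and at medians of 13.7 and 12.1 in the ascending and descending colon, 6.01 in the liver, 4.08 in the duodenum and 2.97 in the ileum. Without the 3 doubted liver libraries its liver median was 9.26 FPKM. HNF4G, its paralogue, was at 49.3, 159 and 473 FPKM in the ileum, 46.5 in the kidney cortex and 46.4 in the duodenum. In the ileum every HNF4G value lay above every HNF4A value, which reached at most 5.86 FPKM. Without the 4 doubted ileum libraries, HNF4G ran from 108 to 369 FPKM there. HNF4A had a median of 3.48 FPKM in the retinal pigment epithelium (1.09 to 6.59), where the HNF4G share of the pair was 0%.

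NR5A2 (LRH-1), which regulates bile acid and exocrine pancreas genes, was at 48.7, 64.9 and 98.9 FPKM in the pancreas, 27.8 in the liver and 16.8 in the ileum. The pancreas and liver ranges met only at the top of the liver, whose highest value was 49.6 FPKM at ZT18. In the brain NR5A2 had medians of 2.66 FPKM in the mammilliary body and 2.16 in the arcuate nucleus, and NR1I2 had 2.73 in the ventromedial hypothalamus and 2.65 in the arcuate nucleus.

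**Figure D2:**
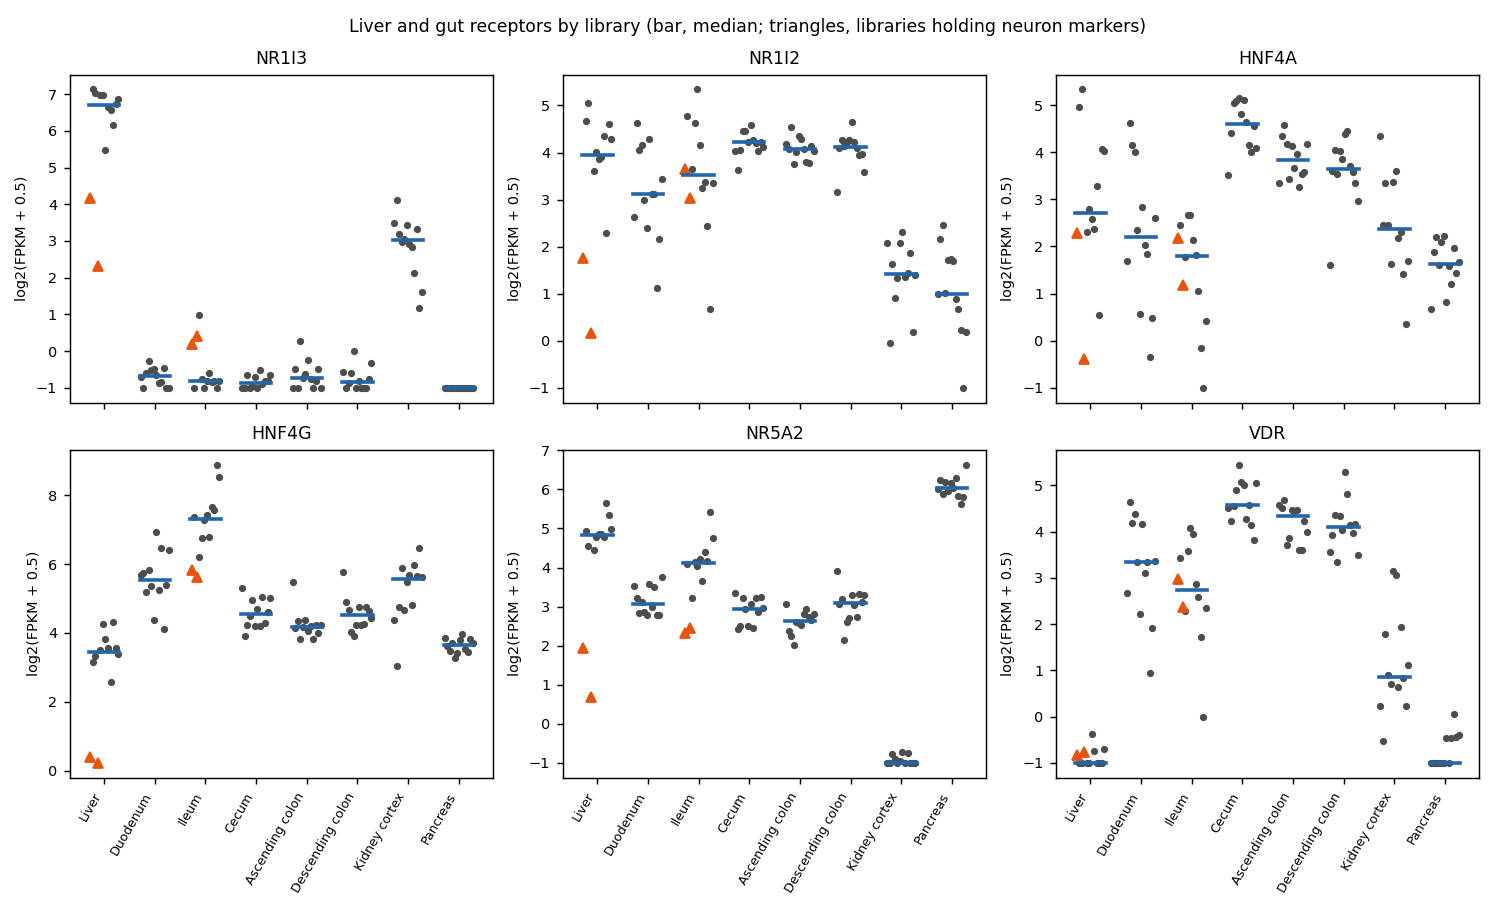
Points are libraries of 8 tissues on a log2(FPKM + 0.5) axis, ordered by time within a tissue; bars are medians, and triangles are libraries that hold neuron markers (ZT0 and ZT6 in the liver, ZT0 and ZT4 in the ileum). NR1I3 is high in the liver alone, HNF4G is highest in the ileum, and the liver triangles lie at the bottom of NR1I3, NR1I2, HNF4G and NR5A2.

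Sex steroid receptors were low. ESR1, the oestrogen receptor alpha, was at 4.53, 11.8 and 88.2 FPKM in the prostate and 4.67 in the liver; the value of 88.2 was the ZT14 library, and the next highest was 21.8. Without doubted libraries the lowest prostate value was 10.2 FPKM. Of the libraries left out, ZT12 (7.79 FPKM) and ZT22 (6.56 FPKM) were those that held the prostate markers KLK3, MSMB and ACPP. Their marker medians were 952 and 502 FPKM, against 18.2 FPKM in the tissue. ESR2, the beta form, reached 0.475, 5.54 and 11.47 FPKM in the tissue labelled adrenal medulla and no more than a median of 1.82 FPKM elsewhere; without the 3 doubted libraries, ZT0, ZT4 and ZT6, it ran from 4.34 to 11.47 FPKM there. PGR, the progesterone receptor, had medians of 3.99 FPKM in the aorta, from 84 reads, and 2.33 in the heart. NR0B1 (DAX1), an inhibitor of steroid-forming genes that lacks the usual DNA-binding domain, was at 1.63, 9.36 and 63.03 FPKM in the same adrenal medulla samples and at 0, 6.44 and 12.25 FPKM in the pituitary. Both adrenal extremes, ZT0 and ZT6, and the pituitary value of 0, ZT22, were doubted libraries. Without doubted libraries NR0B1 ran from 5.51 to 16.01 FPKM in the adrenal medulla and from 3.93 to 12.25 in the pituitary. Over 64 tissue medians, NR0B1 and the steroidogenic gene STAR had a Spearman correlation of 0.531, but both had a median of 1 FPKM or more in only 3 tissues.

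The oestrogen-related receptors are orphans that control genes of mitochondria, and ESRRB and ESRRG both had their top median in the retina. ESRRA was at medians of 55.8 FPKM in abdominal muscle, 51.5 in the gastrocnemian muscle, 42.3 in the cerebellum and 36.5 in the cornea. ESRRB was at 24.1, 41.7 and 69.1 FPKM in the retina, with 22.8 in the kidney medulla and 4.72 in the retinal pigment epithelium. ESRRG was at 45.5, 60.8 and 96.5 FPKM in the retina, 52.6 in the antrum, 45.2 in the kidney cortex and 29.9 in the visual cortex. The antrum values of ESRRG ran from 0.982 at ZT20 to 206 at ZT12 and overlapped those of each of these tissues. ESRRB and ESRRG had the highest Spearman correlation of any pair of receptors over the 64 tissue medians, 0.798; the points share libraries and their depth. ESRRA had 0.0311 with ESRRB and -0.123 with ESRRG.

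Of the orphan receptors of the NR2 group, NR2E1, NR2E3, NR2F1 and NR2C1 had their top median in a tissue of the eye, though NR2C1 was found in every tissue. NR2F6 and NR2C2 had theirs in the pineal gland and the bone marrow. NR2E3, which in rods keeps cone genes off, was at 15.0, 27.9 and 54.9 FPKM in the retina and 0.543, 4.73 and 48.7 in the retinal pigment epithelium. The 2 high pigment epithelium libraries, 38.6 FPKM at ZT12 and 48.7 at ZT18, were also the highest there for ESRRB, at 46.8 and 38.2 FPKM. The rod marker list had a median of 263 FPKM in the tissue and its highest value, 2795 FPKM, in the ZT18 library. How far rods in those samples enter the values was not tested.

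NR2E1 (TLX), which maintains neural stem cells and retinal development, had medians of 20.9 FPKM in the optic nerve head, 18.8 in the retina, 17.2 in the visual cortex, 16.6 in the putamen and 16.5 in the hippocampus, with overlapping ranges. It was at 0 in 10 of 12 liver libraries, and at 7.68 and 11.0 FPKM in the same ZT0 and ZT6 libraries as SNAP25. The count of 23 receptors in the liver includes NR2E1 through these 2 libraries alone. NR2F1 (COUP-TF1), which patterns the cortex, had medians of 94.0 FPKM in the iris and 66.2 in the amygdala. The iris values ran from 30.1 to 363 FPKM, with 291 at ZT6 and 363 at ZT8, both doubted libraries. Only 4 iris libraries were not doubted, and their range overlapped that of the amygdala. NR2F6 was at 31.4 FPKM in the pineal gland and 18.2 in the aorta.

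NR2C1 and NR2C2, orphans named for the testis, had their top medians elsewhere. NR2C1 had 36.4 FPKM in the retina, 31.2 in the optic nerve head, 28.97 in the olfactory bulb and 28.9 in the testicles, and NR2C2 had 31.9 in the bone marrow and 15.2 in the prostate. NR6A1 (GCNF), the germ cell factor, had its top median in the testicles, at 5.11, 8.15 and 25.4 FPKM, and 2.37 in the liver. Spermatid genes had a median of 7.21 FPKM in the testicles but of 2609 and 2750 FPKM in the ZT2 and ZT14 libraries. Without these NR6A1 ran from 5.11 to 12.1 FPKM.

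Level differences between groups of tissues were tested on the 12 within-animal differences of log2(FPKM + 0.5), averaged over the tissues of each group, with limma's treat against a difference of 1, a factor of 2, and adjusted over all genes tested. Brain (22 tissues) was compared with periphery (35 tissues). Of 29 receptors tested, 5 were higher in brain, where 13.8% of all genes were, and 6 were lower, where 12% of all genes were. Higher in all 12 animals were NR2E1 (log2 difference 3.92 ± 0.07 SE, 15.1-fold, adjusted p = 3.38e-16), NR2F1 (2.60 ± 0.07), RXRG (2.22 ± 0.06), ESRRG (1.35 ± 0.05) and NR0B1 (1.14 ± 0.05, adjusted p = 0.0188). Lower in all 12 were NR1H3 (-2.19 ± 0.08), VDR (-1.68 ± 0.07), PPARA (-1.55 ± 0.07), HNF4G (-1.47 ± 0.04), NR5A2 (-1.37 ± 0.07) and NR2C2 (-1.17 ± 0.06). The median over the 29 was -0.40, and over all genes -0.06. With the median over tissues in place of the mean, the HNF4G difference turned to 0.03, and VDR (-1.01) and NR2C2 (-1.13) were no longer called (adjusted p = 1 for HNF4G and VDR, and 0.129 for NR2C2).

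Among the PPAR targets, 5 of 11 were lower in brain and none was higher, led by the fatty acid oxidation genes EHHADH (-1.88 ± 0.07) and ACADM (-1.42 ± 0.04). Of 7 retinoic acid targets, 2 were higher in brain, among them the retinoid carrier CRABP2 (1.85 ± 0.11), and 1 was lower, the transglutaminase TGM2 (-1.91 ± 0.08). The coregulators NCOA3 (-1.98 ± 0.07) and NRIP1 (-1.98 ± 0.08) were lower too. Within the brain, the 9 hypothalamic tissues were set against the other 13. Only RXRG of 23 receptors was higher (1.68 ± 0.07, 3.20-fold, adjusted p = 5.11e-07, in 12 of 12 animals), where 3.99% of all genes were, and no receptor was lower, where 1.06% were. At an unadjusted p under 0.05 with limma's treat, NR5A2 was the only other receptor, also on the higher side (1.12, adjusted p = 0.385), and none was lower.

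In the liver, 6 of 29 receptors were higher than in the other 34 peripheral tissues, against 5.37% of all genes. They were NR1I3 (6.48 ± 0.40, 89.4-fold, adjusted p = 1.91e-07), NR5A2 (3.504 ± 0.37), NR1I2 (3.42 ± 0.39), HNF4A (2.84 ± 0.45), HNF4G (2.27 ± 0.36) and ESR1 (1.90 ± 0.25). The direction held in 12 of 12 animals for NR1I3, NR5A2 and ESR1, in 11 for NR1I2 and HNF4A and in 10 for HNF4G. PPARD (-1.67 ± 0.22), VDR (-1.70 ± 0.09) and RARG (-1.78 ± 0.17) were lower, against 5.95% of all genes; with the median over tissues PPARD (adjusted p = 0.0639) and VDR (1) were not called. Without the libraries that held markers of another tissue, the NR1I3 difference was 7.204 ± 0.13 and 11 receptors were called. Of the lists of target genes, those higher in the liver were 8 of 8 HNF4A targets, among them TTR (10.2 ± 0.36), APOC3 (9.55 ± 0.41) and SERPINA1 (9.08 ± 0.39), 7 of 7 PXR and CAR targets, among them SULT2A1 (9.79 ± 0.43) and CYP2C8 (9.74 ± 0.45), and 7 of 11 PPAR targets, with FABP1 at 7.46 ± 0.49. PPARA itself was not called there (1.19 ± 0.32, adjusted p = 1). It was called, as was NR1H3, without the libraries that held markers of another tissue. In the liver libraries with neuron markers PPARA was at 1.69 FPKM (ZT0) and 0.895 FPKM (ZT6).

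The 5 gut tissues, duodenum, ileum, cecum and both colon segments, had 5 receptors above the other 30 peripheral tissues, against 7.08% of all genes, each in 12 of 12 animals. HNF4G differed by 5.15 ± 0.10 (35.6-fold), NR1I2 by 4.17 ± 0.10, HNF4A by 3.55 ± 0.14, VDR by 3.48 ± 0.11 and NR5A2 by 2.57 ± 0.07. ESR1 (-1.20 ± 0.06), NR2F1 (-1.28 ± 0.09) and RARB (-1.44 ± 0.09) were lower, against 5.18% of all genes. The NR2F1 call was lost without libraries holding markers of another tissue (adjusted p = 0.0885). With the median over tissues NR2F1 and ESR1 were not called (0.293 and 0.239). Leaving out libraries that match another animal removes the duodenum and both colon segments. The calls of ESR1, NR2F1 and RARB were then all lost, RARG was called, and the 5 higher calls held. Of the HNF4A targets 4 of 8 were higher, with the lipoprotein assembly gene MTTP at 2.72 ± 0.09, and of the PXR and CAR targets 3 of 7, with CYP3A4 at 2.71 ± 0.14. Of 11 PPAR targets 2 were higher, among them FABP1 (10.8 ± 0.13), and 1 was lower. Of 6 VDR targets 1 was higher, the calcium-binding S100G at 3.01 ± 0.22. S100G had a median of 12540 FPKM in the duodenum, 0.980 in the ileum and 0 in the cecum and both colon segments, where VDR had its top medians. The enterocyte markers VIL1, FABP2 and CDH17 had medians of 75.2 to 141 FPKM in these 5 tissues, and their part in the differences was not tested.

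In the kidney (2 tissues against 33), ESRRG (4.08 ± 0.13), ESRRB (3.86 ± 0.21), HNF4G (2.54 ± 0.20) and NR1I3 (1.58 ± 0.13) were higher, 4 of 29 against 4.91% of all genes, each in 12 of 12 animals. NR2C2 alone was lower (-1.46 ± 0.15, adjusted p = 0.0369), against 7.14% of all genes. Without libraries far from their tissue NR1I3 and NR2C2 were no longer called (adjusted p = 0.233 and 0.165). The renal vitamin D targets CALB1 (9.48 ± 0.21) and SLC34A1 (6.40 ± 0.31) were higher, 2 of 6. NR1I3 was in the cortex and hardly in the medulla, where its median was 0.233 FPKM, from 2.5 reads.

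In fat (6 tissues against 29), NR1H3 alone of 29 receptors was higher, by 1.80 ± 0.11 (3.48-fold, adjusted p = 8.99e-05), against 3.13% of all genes. NR1I2 (-1.23 ± 0.05), VDR (-1.61 ± 0.08) and HNF4G (-1.85 ± 0.06) were lower, against 1.6% of all genes, but with the median over tissues in place of the mean they were not called (adjusted p = 1, 0.698 and 1). Of the genes that PPARG drives in adipocytes, 6 of 6 were higher, with ADIPOQ at 7.44 ± 0.17 and CIDEC at 6.498 ± 0.18. Of 8 LXR targets SCD (5.14 ± 0.20) and ABCG1 (1.69 ± 0.15) were higher. The omental fat samples held smooth muscle genes at a median of 3461 FPKM and adipocyte genes at 155 FPKM; without them all 4 receptors were still called.

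In striated muscle (abdominal and gastrocnemian muscle and heart, against 32 tissues), 6 receptors were higher, against 8.46% of all genes, and 7 were lower, against 13.2%. RXRG was higher by 4.44 ± 0.11 (21.8-fold), ESRRG by 2.52 ± 0.11, ESRRB by 2.34 ± 0.10, PPARA by 2.03 ± 0.10, ESRRA by 1.93 ± 0.15 and RARB by 1.57 ± 0.12. All 3 oestrogen-related receptors were thus among the 6. ESRRG had a median of 17.1 FPKM in the heart, 13.2 in the gastrocnemian and 4.11 in abdominal muscle. ESRRB had 3.31, 3.67 and 1.49 FPKM in the same order, and ESRRA had 9.29, 51.5 and 55.8 FPKM. PPARGC1A, the coactivator of PPARA and of these receptors, was higher by 2.96 ± 0.14, as were 3 of 4 oestrogen-related receptor targets, among them the mitochondrial gene ATP5B (1.96 ± 0.06). Of the PPAR targets, CPT1B (3.51 ± 0.12) and ACADM (2.25 ± 0.05) were among 3 that were higher, and the liver-type FABP1 (-2.60 ± 0.09) among 3 that were lower.

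The 7 receptors lower in striated muscle were HNF4G (-1.95 ± 0.04), VDR (-1.86 ± 0.08), NR2F1 (-1.86 ± 0.13), NR1H3 (-1.67 ± 0.10), NR1I2 (-1.32 ± 0.05), HNF4A (-1.19 ± 0.06) and NR5A2 (-1.18 ± 0.05). With the median over the tissues, NR5A2, NR1I2, HNF4G, VDR and HNF4A were not called (adjusted p from 0.106 to 1), which leaves NR1H3 and NR2F1. In 0 of 12 animals was any of the 7 above the other tissues.

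The retina, set against the 22 brain tissues, had 7 of 24 receptors higher, against 18.7% of all genes, and 7 lower, against 22.1%. Higher in all 12 animals were NR2E3 (5.80 ± 0.17, 55.6-fold), ESRRB (5.64 ± 0.12, 49.7-fold), ESRRG (3.55 ± 0.07), RARB (2.91 ± 0.12), PPARA (2.44 ± 0.11), NR2C2 (1.93 ± 0.09) and NR2C1 (1.76 ± 0.07). Lower in all 12 were NR2F1 (-2.92 ± 0.17), NR1H2 (-2.41 ± 0.21), ESRRA (-1.67 ± 0.20), NR0B1 (-1.60 ± 0.05), NR2F6 (-1.42 ± 0.17), RXRA (-1.36 ± 0.12) and NR1I3 (-1.18 ± 0.05). The last 3 were not called with the median over brain tissues (adjusted p = 0.744, 0.212 and 0.674). The coregulators were among the genes higher in the retina: 8 of 13 coactivators, with PPARGC1A at 2.35 ± 0.09 and NCOA3 at 2.44 ± 0.10, and 4 of 8 corepressors, with NRIP1 (RIP140), the partner of the oestrogen-related receptors and LXRs, at 4.12 ± 0.12. The pituitary against the brain gave RXRG higher (1.46 ± 0.13, adjusted p = 0.0331, 12 of 12 animals), against 2.44% of all genes, and NR2E1 lower (-3.29 ± 0.38, in 11 of 12 animals), against 4.29%. The pituitary library in which NR2E1 reached 13.3 FPKM, ZT4, also held oligodendrocyte genes at a median of 4424 FPKM; without libraries far from their tissue, 6 receptors were called in place of 2, and with the median over brain tissues RXRG was not called (adjusted p = 0.0968).

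**Figure D3:**
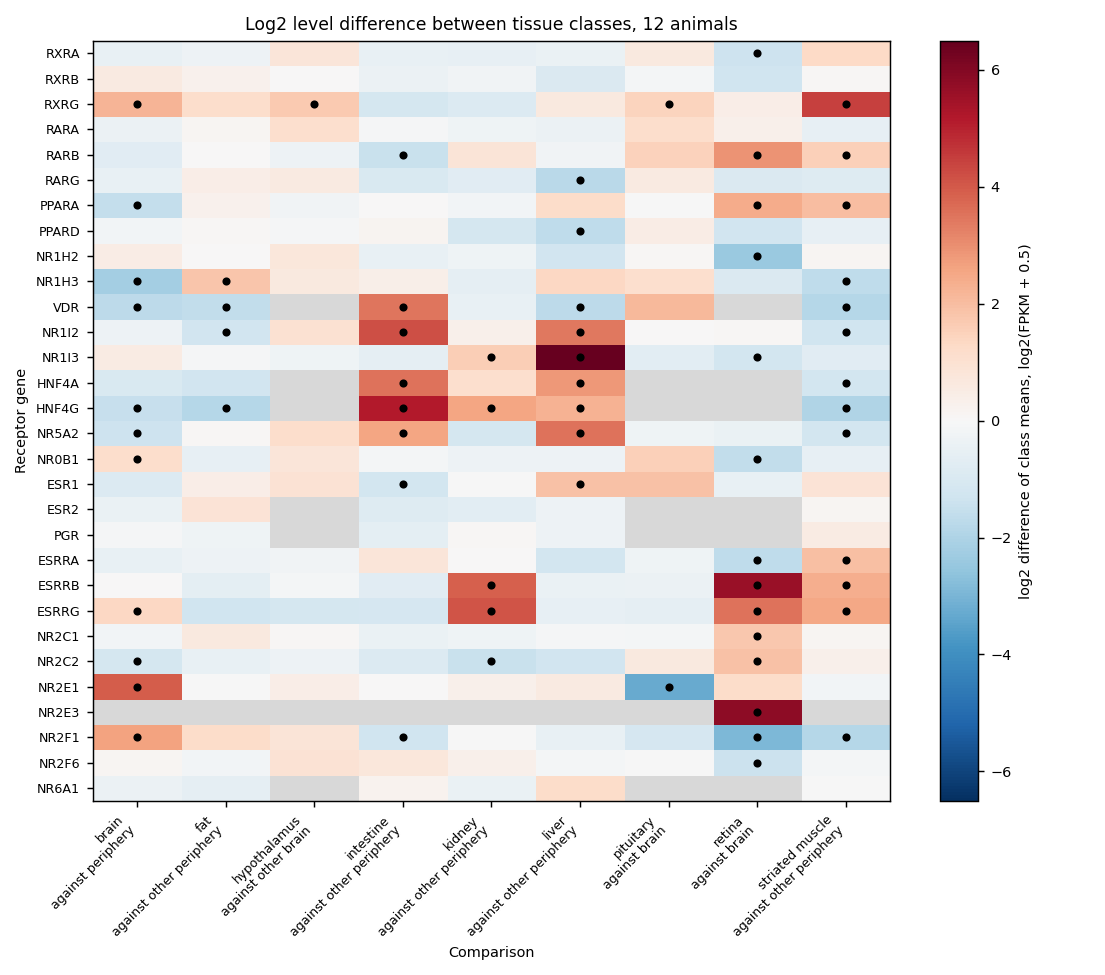
Rows are receptors and columns are the 9 comparisons of tissue groups; the colour is the mean log2 difference over 12 animals, black dots mark calls, and grey marks receptors not tested. NR1I3 in the liver, NR2E3 and ESRRB in the retina and HNF4G in the intestine are the darkest red cells.

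Within families, which member led also depended on the tissue. FPKM is scaled by gene length, so shares of a family's summed FPKM compare members. RXRB was the leading RXR in 60 of 64 tissues, with a median share of 76.7% over the brain tissues and 88.7% over the periphery. RXRG led in the other 4: the pineal gland (89.5%, 2.66 to 91.5% between libraries), abdominal muscle (77.7%), the putamen (73.1%) and the gastrocnemian muscle (54.4%). NR1H2 led NR1H3 in all 22 brain tissues, with a median share of 91.3%, but in 22 of 35 peripheral ones, and NR1H3 held 90.8% in the ileum, 90.4% in the liver and 87.7% in white adipose tissue.

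PPARD led PPARA in all 22 brain tissues and in 23 of 35 peripheral ones. PPARA led most in the liver (91.8%), retina (85.1%), abdominal muscle (83.5%), heart (82.0%) and gastrocnemian muscle (81.5%). HNF4G held the larger share in 11 of the 12 peripheral tissues with a summed level of 1 FPKM or more, and HNF4A in the cecum alone of them (55.4%, 21.8 to 63.8% between libraries). ESRRA led in 27 and ESRRG in 6 of the 34 peripheral tissues tested, while in brain they led in 10 and 12. ESRRA held 0.956% in the retina, where ESRRG held 61.6% and ESRRB 37.5%.

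**Figure D4:**
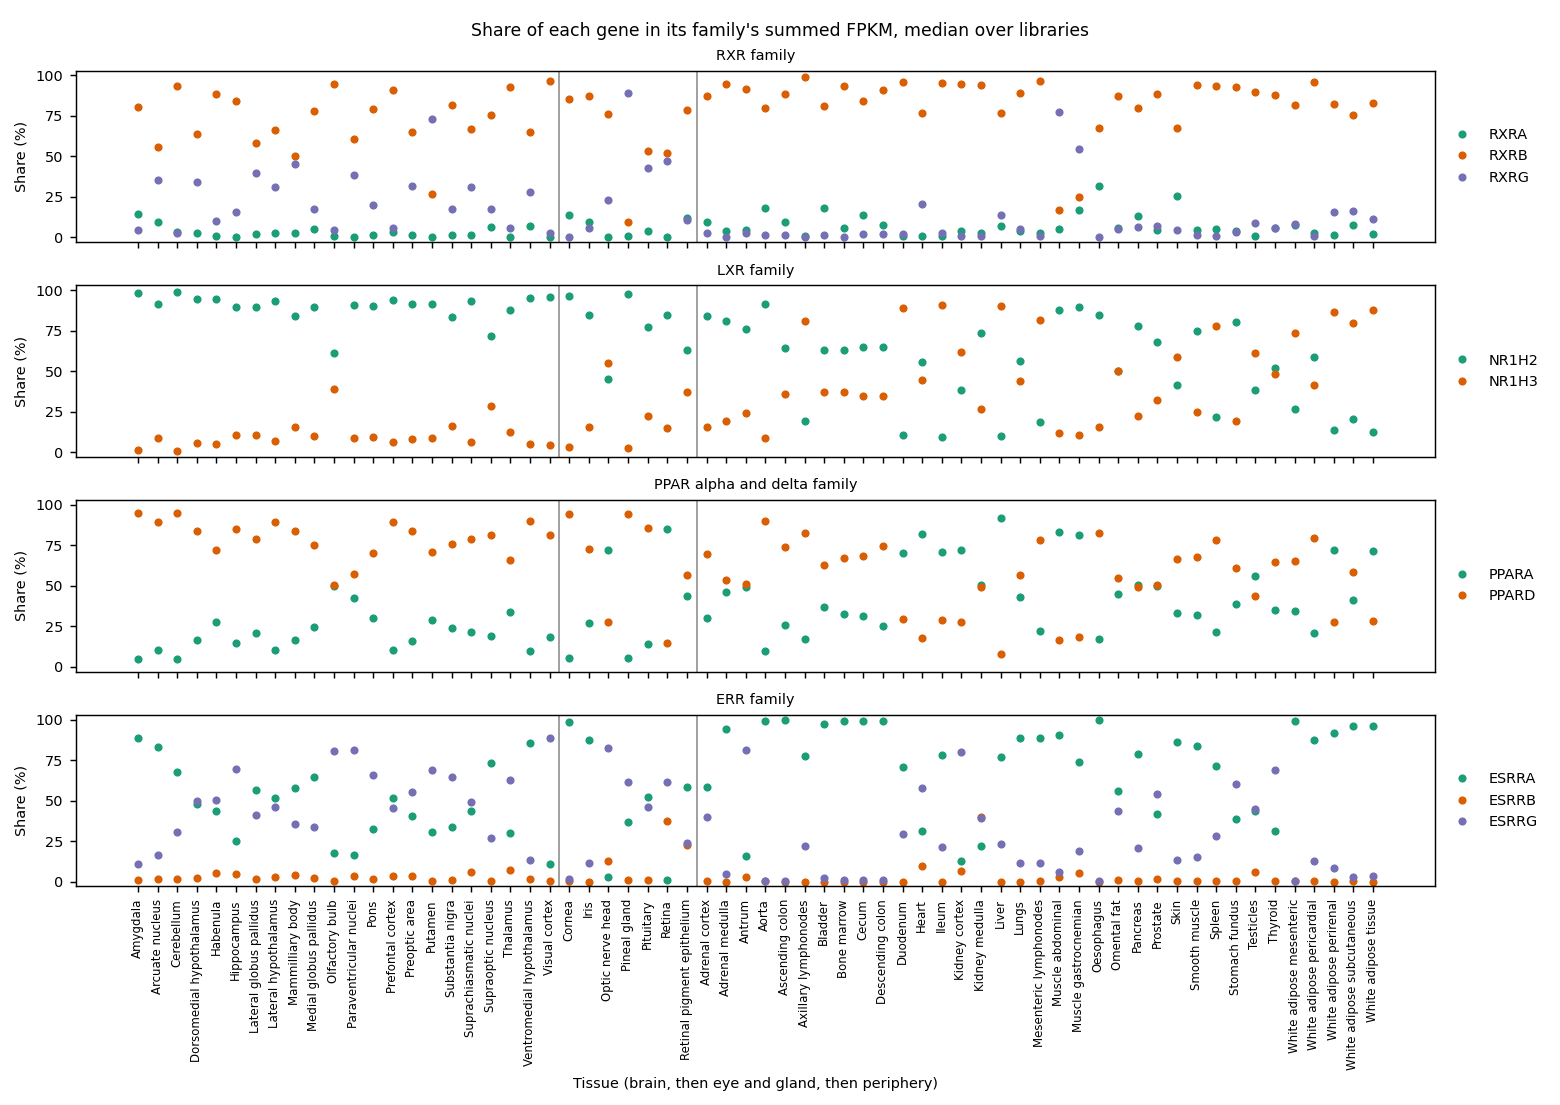
Each point is a gene's share of its family's summed FPKM in a tissue, as the median over libraries. RXRB lies above the other RXR genes except in 4 tissues, NR1H2 lies above NR1H3 in every brain tissue, and ESRRA and ESRRG alternate in the brain.

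Paired with a target, coactivator or other receptor over the 64 tissue medians, the receptors gave Spearman correlations from -0.438 to 0.644, given as a description since tissues share libraries and depth. ESRRG had 0.644 with its coactivator PPARGC1A, and HNF4A had 0.601 with its paralogue HNF4G. Among pairs with a target, HNF4A had 0.515 with APOB, NR1I2 had 0.475 with CYP3A4, and VDR had 0.362 with the calcium channel TRPV6. NR1H3 had -0.0357 with ABCG1, RARB had 0.00174 with CYP26B1, NR1I3 had -0.0605 with CYP2B6 and ESR1 had -0.438 with GREB1. The pair of NR1I3 and CYP2B6 had both genes at a median of 1 FPKM in 1 tissue. Between receptors the lowest value was -0.679, for RXRG and VDR, and RXRA had 0.794 with NR1H2.

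For the 24 h profile, each receptor's deviations from its tissue mean were averaged over tissues for each animal and fitted with a 24 h cosine, with adjustment over all genes tested. Over 63 tissues with 12 libraries, 16 receptors passed the filter (a mean of 1 FPKM in a share of at least 0.5 of the tissues) and 11 were called, against 63.1% of all genes, a share near the background. Of all 7610 called genes, 92.4% peaked between ZT4 and ZT8 (4246 genes) or between ZT16 and ZT20 (2783 genes). Of the 11 receptors, 10 peaked by day.

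NR1H2 deviated by 0.70, 0.85 and 0.84 (log2) in the animals of ZT2, ZT4 and ZT6, by 0.32 and 0.27 in those of ZT8 and ZT10, and by -0.38, -0.47, -0.60, -0.54 and -0.91 in those of ZT14 to ZT22. The animals of ZT2 to ZT10 lay above 0 and those of ZT14 to ZT22 below it, with no overlap, and the amplitude was 0.74 ± 0.09 (SE) with a peak at ZT6.08, 2.80-fold from trough to peak (adjusted p = 0.000289, limma). ESRRA had an amplitude of 0.75 ± 0.10 at ZT6.23 and ran from 0.83 in the animal of ZT2 to -0.88 in that of ZT22. RXRA (0.65 ± 0.09), NR2F1 (0.55 ± 0.07), NR2F6 (0.53 ± 0.08), PPARD (0.50 ± 0.08), NR1H3 (0.44 ± 0.07), RARG (0.35 ± 0.06), RARA (0.33 ± 0.07) and RXRB (0.31 ± 0.04) peaked between ZT5.73 and ZT8.00. For each of these 10 receptors all 5 animals of ZT2 to ZT10 were above 0. All 5 of ZT14 to ZT22 were below 0 for 8 of them; PPARD had 4 and NR1H3 had 3.

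ESRRG was the exception among the called, with a peak at ZT16.5 and an amplitude of 0.15 ± 0.05 (adjusted p = 0.0425). It ran from -0.29 in the animal of ZT2 to 0.23 in that of ZT22, and the call was lost when any of 9 of the 12 animals was left out. NR2C1 (adjusted p = 0.0667), RARB (0.266), NR2C2 (0.288), PPARA (0.813) and RXRG (0.932) were not called, with amplitudes from 0.02 to 0.15. The median amplitude over the 16 was 0.34, and over all genes 0.18.

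**Figure D5:**
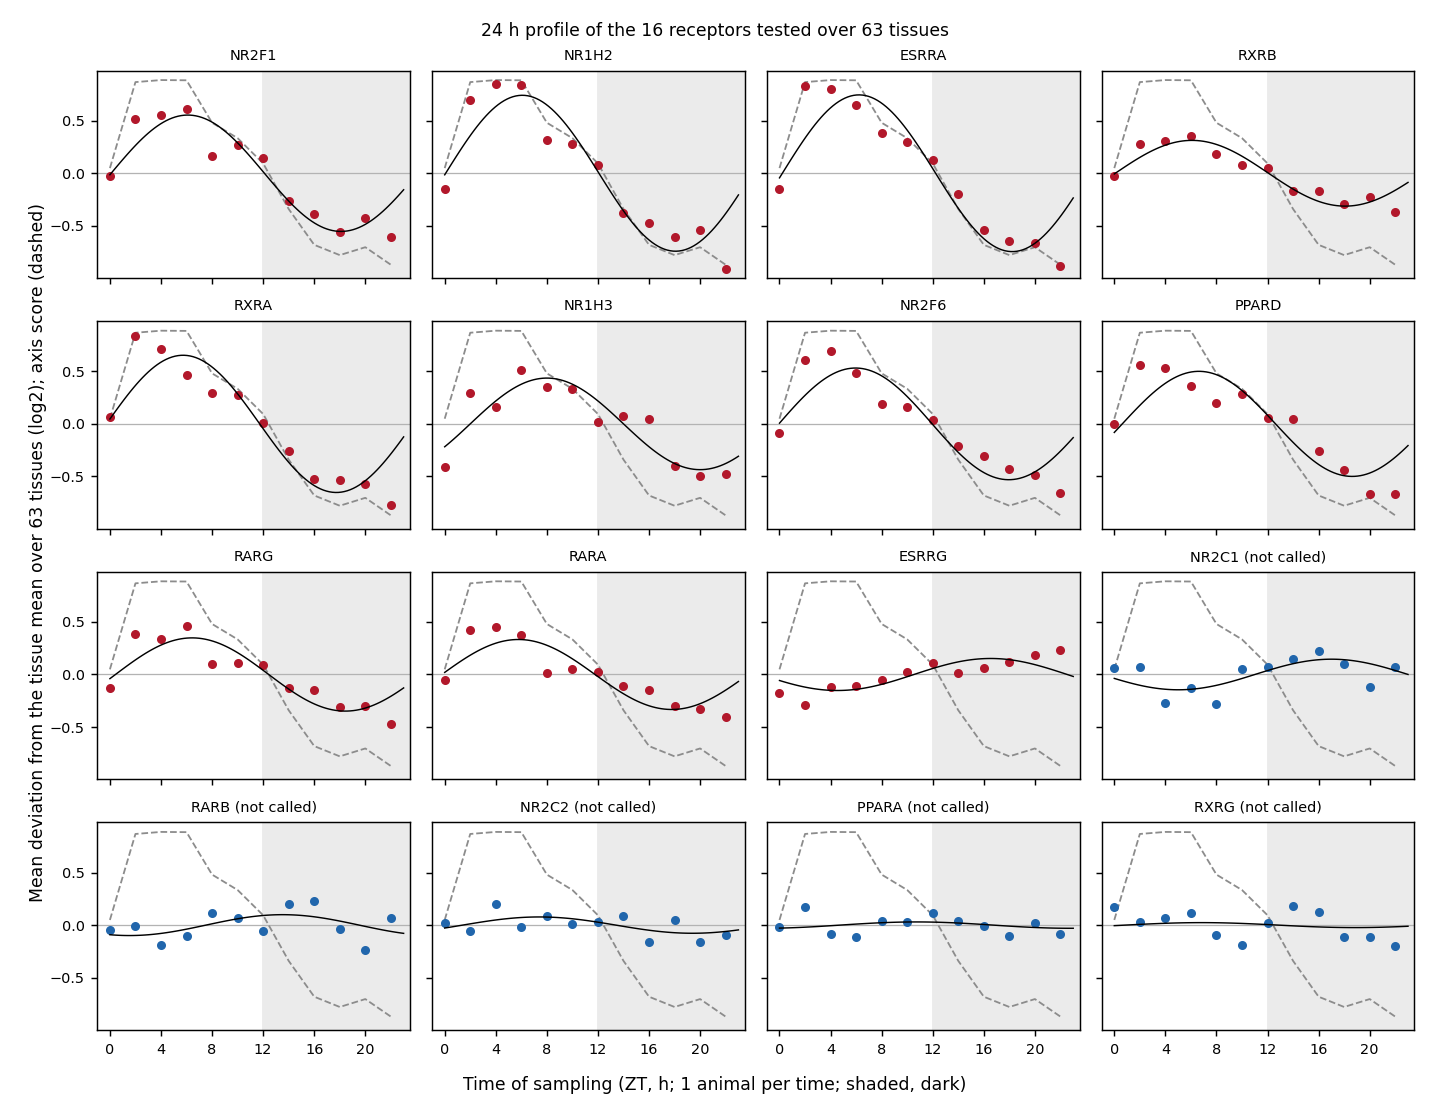
Each panel is a receptor; points are the 12 animals' mean log2 deviations over 63 tissues by ZT, the black line is the fitted cosine, the dashed line is the mean library axis score of the animals, and shading is dark. The points of NR1H2, ESRRA and RXRA run along the dashed line, and those of RXRG and PPARA stay near 0.

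A shared axis of the libraries moved with these values. It is the first component of all libraries' deviations from their tissue means, computed without the receptors, and held 29.03% of the variance. Its mean score was 0.05 in the animal of ZT0, 0.87 to 0.89 in those of ZT2 to ZT6, and -0.87 in that of ZT22, which were also among the highest and the lowest animals for NR1H2 and ESRRA. The axis thus had a day course of its own, with 0.48 at ZT8, 0.33 at ZT10, 0.09 at ZT12, -0.34 at ZT14 and -0.68 to -0.87 from ZT16 to ZT22. A fit with the axis therefore cannot tell a receptor's own rhythm with a peak near ZT6 from the axis, here or in the fits below. With the axis in the model 0 of 16 receptors were called, against 0.174% of all genes. By limma 1 receptor, NR1H3, had an unadjusted p under 0.05 (amplitude 0.25 ± 0.08, adjusted p = 0.275). The clock receptors NR1D1 and NR1D2 remained called with it (amplitudes 1.25 and 0.66), but both peaked between ZT12 and ZT24, away from the axis.

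Brain and periphery were fitted apart. In brain 9 of 18 receptors were called, against 31.7% of all genes, all peaking by day: ESRRA (0.60 ± 0.08), NR1H2 (0.54 ± 0.09), RXRA (0.48 ± 0.07), PPARD (0.42 ± 0.09), NR2F1 (0.40 ± 0.08), NR2F6 (0.34 ± 0.06), NR1H3 (0.31 ± 0.08), RXRB (0.21 ± 0.04) and RARA (0.20 ± 0.06). Of all 4008 called genes in brain, 2884 peaked between ZT4 and ZT8 and 795 between ZT16 and ZT20. All 9 receptor calls were lost with the library axis in the model, and also with a linear trend over collection order. RARA was no longer called when any of 11 of the 12 animals was left out, and NR1H3 when any of 5 was. In the periphery 11 of 17 were called, against 61.3%, all by day: NR1H2 (0.91 ± 0.11), ESRRA (0.89 ± 0.12), RXRA (0.79 ± 0.13), NR2F6 (0.68 ± 0.11), NR2F1 (0.65 ± 0.08), PPARD (0.59 ± 0.09), NR1H3 (0.56 ± 0.09), RARA (0.46 ± 0.09), RARG (0.43 ± 0.07), RXRB (0.39 ± 0.06) and VDR (0.24 ± 0.07). Of all 7253 called genes in the periphery, 3953 peaked between ZT4 and ZT8 and 2709 between ZT16 and ZT20. With the axis 0 of the 11 receptors were called, and with the trend ESRRA, NR1H2, NR1H3 and NR2F1 were. The VDR call was lost when any of 5 animals was left out. A test of the difference itself called 2 of 16 receptors, NR2F6 and NR1H2, against 5.67% of all genes; both calls were lost when libraries that match another animal were left out (adjusted p = 0.446 and 0.421).

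The lists of targets and coregulators were fitted over the same 63 tissues, where 63.1% of all genes were called. Of 6 LXR targets 5 were called, 3 by day and 2 by night, with ABCG1 at ZT4.17 and SCD at ZT20.4. Of 8 PPAR targets 6 were called, 5 of them by day, with CPT1B (0.44 ± 0.07) and ANGPTL4 (0.84 ± 0.14) peaking at ZT6.18 and ZT6.86. All 5 retinoic acid targets tested were called by day, led by DHRS3 (0.53 ± 0.06). Of 12 coactivators 6 were called, 3 by day, among them PRMT1 and CARM1, and 3 by night, among them NCOA2 at ZT17.8. Of 7 corepressors 4 were called, 2 by day and 2 by night, with TBL1XR1 at ZT18.0. The shares of both coregulator lists were below that of all genes. With the axis in the model no gene of these 5 lists was called. Of the oestrogen-related receptor targets 2 of 4 were called, 1 by day and 1 by night, and of the PPARG targets 3 of 5, 2 of them by night. The VDR targets had 1 of 2 called, the HNF4A targets 1 of 3 and the PXR and CAR targets 0 of 1. None of these was called with the axis. Of the targets of the mineralocorticoid receptor NR3C2, 4 of 5 were called, all by day, and 1 was called with the axis.

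In single tissues, 122 of 1083 pairs of receptor and tissue were called (11.3%), against 6.56% of all gene and tissue pairs. The calls fell on 19 receptors and 22 tissues. Of them 113 peaked between ZT0 and ZT12 and 105 between ZT4 and ZT10, and the peaks of all called gene and tissue pairs were not counted. NR1H2 was called in 20 of 64 tissues and ESRRA in 19 of 62, followed by RXRB in 11, NR2F6 in 10, and NR1H3, RARG and RXRA in 9 each. The thyroid had 10 of its 16 receptors called, against 44.2% of all genes there, and the stomach fundus 9 of 17, against 34.4%, both tissues whose libraries matched the animal sampled 2 h earlier. Among the called pairs the largest amplitude was ESRRA's 2.03 in the stomach fundus; RXRA in the gastrocnemian muscle, with the muscle markers moving as given above, had 1.91. In the liver, where 23 receptors passed the filter, no receptor and 6 genes in all (0.0502%) were called by limma. This liver fit kept the ZT0 and ZT6 libraries, which held neuron markers and the lowest NR1I3 values. At an unadjusted p under 0.05 there were 5 receptors, NR1H2, NR2F1, RXRB, ESRRA and RXRA.

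A few calls peaked by night: ESR1 in the kidney cortex at ZT16.0 and gastrocnemian muscle at ZT21.7, ESR2 in the adrenal medulla at ZT14.6, ESRRG in the heart at ZT17.95 and omental fat at ZT13.8, NR2C1 in the paraventricular nuclei and visual cortex at ZT14.2 and ZT19.4, and PPARA in the kidney cortex at ZT14.2 and gastrocnemian muscle at ZT23.25. The 11 receptors NR1I2, NR1I3, HNF4G, NR5A2, VDR, NR2E1, NR2E3, NR0B1, PGR, NR6A1 and RARB were called in no single tissue. Of their 196 pairs, 28 (14.3%) had an unadjusted p under 0.05 by limma. The share was 36.2% over all receptors (392 of 1083 pairs) and 23.6% over all gene and tissue pairs. The 11 were picked for having no call in these same fits, so a low share among them is in part given by that choice.

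With the library axis in the model, 2 of the 1083 pairs were called, against 0.151% of all pairs, and both were in the antrum, the mucus-rich outlet of the stomach. PPARA there was at 6.29 to 8.85 FPKM in the 7 animals of ZT0 to ZT12 and at 3.19 to 4.32 in the 5 of ZT14 to ZT22, with no overlap, an amplitude of 0.59 at ZT5.34 and an adjusted p of 0.0317 (0.0306 with the axis). The smooth muscle gene DES was at 20.3 to 58.05 FPKM from ZT0 to ZT12, 32.96 at ZT14 and 61.6 to 134 from ZT16 to ZT22 in the same libraries, and its part in the PPARA values was not tested. HNF4A was at 14.7 and 9.95 FPKM at ZT2 and ZT4, 5.68 to 6.36 from ZT6 to ZT10, 2.20 at ZT0 and 0.657 to 1.96 from ZT12 to ZT22, with an amplitude of 1.31 at ZT5.43 and an adjusted p of 0.0396 (0.0401 with the axis). The enterocyte markers VIL1, FABP2 and CDH17 ran from 0.656 FPKM at ZT22 to 34.95 at ZT2 in the same libraries, and the part of that cell type in the HNF4A values was not tested. Over all genes in the antrum, 688 were called without the axis and 710 with it. Over the 122 called pairs the median amplitude was 1.04 without the axis and 0.26 with it.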

How the data were processed

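RNA-seq values of 767 libraries, 64 tissues of 12 animals, were taken from the deposited table, in which the authors give FPKM per gene. Of tools, STAR, featureCounts and DESeq2 are listed per the submitters' processing notes, without versions or roles. For the genome build and the use of strand in counting, nothing is stated in the labels. Low values fall on whole reads in every library, which gave the read totals of 32790 to 31811286 per library; precision is limited by reads for low genes, and intervals are not given for counts. Values were taken as log2(FPKM + 0.5). Rhythm was a 24 h cosine and sine fitted with limma 3.58.1 (R 4.3.3) and its moderated F, on each animal's mean deviation from the tissue means, or on single tissues; amplitude is on that log2 scale, and the pseudocount understates changes of low genes. Levels were per-animal differences of tissue class means, tested with limma's treat against a log2 difference of 1. P-values were adjusted by Benjamini-Hochberg over all genes tested, within each tissue for single tissues, at 0.05. Genes needed a mean of 1 FPKM in the tissue, in a share of 0.5 of the tissues for averages, or in 1 tissue for levels. The fits were tested on simulated data with independent noise for each gene and library. These data held no shared library axis and no animal effect, so the test does not bear on calls that follow either. The 12 animals may differ for reasons other than time, and the labels hold no repeat at a time, so p-values measure spread between animals about the fitted curve.

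Every receptor present is named, with tissues from its 5 highest medians, every called comparison, and up to 3 genes with the smallest p of each list; other tissues and libraries were named after their values were seen. The members and lists were chosen with earlier results of these data known. Tau and Spearman correlations over tissue medians are descriptions. Alternatives were another pseudocount, filter, scaling, threshold and covariate, tissue medians, and leaving out each animal or doubted libraries. Some genes of the lists are counted but not reported by name here.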

Additional observations from a re-analysis of the deposited data

Results flagged for a closer look

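The 24 h amplitude of NR2F6 and NR1H2 differed between brain and periphery by a test of the difference itself, the 24 h fit to each animal's brain minus peripheral value. The difference had an amplitude of 0.35 ± 0.08 (SE, log2) for NR2F6 (adjusted p = 0.0445, limma) and 0.37 ± 0.09 for NR1H2 (adjusted p = 0.0462). NR2F6 had an amplitude of 0.34 in brain and 0.68 in the periphery, and NR1H2 one of 0.54 and 0.91. Neither call held with the library axis in the model, and neither held without libraries holding markers of another tissue (NR2F6 0.28, adjusted p = 0.138, and NR1H2 0.30, adjusted p = 0.111).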

How the results depend on the processing

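Body-wide, 11 receptors were called. The count was 5 with a mean of 5 FPKM or more, 0 with the library axis and 5 with a linear trend over collection order. In brain (9) it was 4, 0 and 0, and in the periphery (11) 5, 0 and 4. The brain and periphery difference (2) became 1 with a mean of 5 FPKM, 1 with no filter, and 0 with the axis, the trend, quantile scaling, or without libraries far from their tissue, holding other markers, matching another animal or with an added suffix. The 122 tissue pairs became 63 at 5 FPKM, 67 with no filter, 2 with the axis and 67 with the trend. With a pseudocount of 0.1, level counts were 5 (hypothalamus, 1), 13 (intestine, 8), 8 (kidney, 5), 8 (fat, 4) and 5 (pituitary, 2). With one of 1 they were 3 (kidney), 1 (pituitary) and 7 (brain against periphery, 11). Past a log2 difference of 2, counts were 0 (hypothalamus), 5 (intestine), 2 (kidney), 0 (fat), 0 (pituitary), 3 (brain against periphery), 3 (liver, 9), 2 (striated muscle, 13) and 6 (retina, 14). The pituitary count was 1 with no filter, 1 with tissue medians and 6 without far libraries; quantile scaling of all libraries gave 2 in the hypothalamus. Leaving out an animal gave 10 to 11 body-wide, 7 to 9 in brain, 10 to 12 in the periphery, 0 to 2 for the difference, 47 (without ZT6) to 153 (without ZT0) tissue pairs, 10 to 11 for brain against periphery, 1 to 1 for the hypothalamus, 8 to 10 for liver, 7 to 9 for intestine, 4 to 5 for kidney, 4 to 5 for fat, 12 to 14 for muscle, 13 to 16 for retina and 1 to 3 for pituitary. Tissue pairs were 55 without ZT4, 57 without ZT16, 68 without ZT20, 78 without ZT12 and 80 without ZT18, and the difference was 0 without any of ZT0, ZT4, ZT8, ZT16, ZT18, ZT20 and ZT22. The peak moved by over 6 h with the axis body-wide for ESRRG (amplitude 0.12), PPARD (0.13), RARG (0.10), RXRA (0.048), RARA (0.14) and NR2F6 (0.094), in brain for NR2F1 (0.16), RARA (0.080), NR2F6 (0.027) and NR1H2 (0.13), and in the periphery for PPARD (0.054), RARG (0.048), RXRA (0.11), RARA (0.10) and NR2F6 (0.096). It moved too for ESRRG with the trend (0.023). The level difference of HNF4G between brain and periphery changed sign with the median over tissues (0.034). The cause was not tested.

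Levels were compared within an animal. With no replicate block no count of level calls moved by over 1.5 times, but NR0B1 in brain (adjusted p = 0.0581), PPARD in liver (0.126), NR2F1 in intestine (0.627), NR5A2 in muscle (0.243), NR2F6 in retina (0.0515) and RXRG in pituitary (0.0504) were not called; 61 of the 67 level values kept their call. The rhythm difference between brain and periphery was also taken within animals; for the other rhythms no paired analysis was possible because each time is 1 animal. Quantile scaling of all libraries and leaving out libraries by animal match or column suffix were chosen after seeing the data. Low receptors such as PGR, ESR2 and brain NR1I3 had medians of at most 101 reads in their top tissue or, for NR1I3, 40.5 in the prefontal cortex.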
